A study of Mus musculus with 20 samples.

Results

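The genes described here are 10 antioxidant genes of the mouse macrophage: the superoxide dismutases Sod1 and Sod2, and 8 genes that are known targets of the transcription factor NRF2. They were chosen by gene name, as the rows named Sod1 (ENSMUSG00000022982), Sod2 (ENSMUSG00000006818), Hmox1 (ENSMUSG00000005413), Nqo1 (ENSMUSG00000003849), Gclm (ENSMUSG00000028124), Gclc (ENSMUSG00000032350), Txnrd1 (ENSMUSG00000020250), Srxn1 (ENSMUSG00000032802), Slc7a11 (ENSMUSG00000027737) and Prdx1 (ENSMUSG00000028691). These are 10 of 78409 genes listed, each with 1 row, and all 10 passed the filter on low counts in every comparison. The study asked how airway fluid from inflamed lungs acts on macrophages, and whether the Y RNA RNY1 in the donor matters. Bone-marrow-derived macrophages grown from female C57BL/6J mice received, on day 7 of culture and at 200000 cells per well, a fraction of bronchoalveolar lavage fluid (BALF) or phosphate-buffered saline (PBS). The fluid came from mice with airway inflammation provoked by ovalbumin (OVA), and was split into a fraction enriched for extracellular vesicles (EVFx) and one enriched for protein (ProteinFx). RNA was read from the 3′ ends of polyadenylated transcripts with unique molecular identifiers.

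There were 5 groups of 4 libraries each, named by treatment: PBS, RNY1+/+ EVFx, RNY1-/- EVFx, RNY1+/+ ProteinFx and RNY1-/- ProteinFx. The genotype in a name is that of the mice that gave the fluid (wild type, or with Rny1 deleted by CRISPR). The macrophages were wild type in all 20 libraries. EVFx was given at 35000000 particles per µL and ProteinFx at 0.75 µg of protein per µL, after 5 days at 4 °C, so the doses of the 2 fractions were not matched. The labels give no duration of treatment, and the names of all 20 libraries share 1 prefix.

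Superoxide dismutases turn superoxide into hydrogen peroxide: Sod1 encodes the copper-zinc enzyme of the cytosol, and Sod2 the manganese enzyme of mitochondria, which inflammatory signals are known to induce in macrophages. NRF2 (gene Nfe2l2) is held at low levels by KEAP1, which hands it to the proteasome; electrophiles and oxidants relieve this, and NRF2 then binds antioxidant response elements with a small MAF partner. BACH1 competes for the same elements, most of all at Hmox1, until haem removes it.

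Total counts per library ran from 2510005 to 8277366, with group medians of 5249692 (PBS), 7864328 (RNY1+/+ EVFx), 6329103 (RNY1-/- EVFx), 4601712 (RNY1+/+ ProteinFx) and 4574310 (RNY1-/- ProteinFx). Levels are counts scaled to a library total of 1000000 (CPM), in the order of replicates 1 to 4. The lowest counts behind a value were 9 for Nqo1 and 15 for Slc7a11. The macrophage markers were present in every library: 8 of 8 were found, and they summed to 8619.8 to 12968 CPM, with Lyz2 the most abundant. Lyz2 read 6329.7 to 9469 CPM in PBS and less in every library given a fraction, at 4453 to 5448 and 4131 to 4788 CPM with RNY1+/+ and RNY1-/- EVFx and 4518 to 5019 and 4280.3 to 5945 CPM with RNY1+/+ and RNY1-/- ProteinFx. Of 8 neutrophil markers, Ly6g, Elane and Mpo stayed under 1 CPM in all libraries, while the list summed to 282 to 333 CPM in PBS, 143 to 209 and 184 to 265 in RNY1+/+ and RNY1-/- EVFx, and 198 to 323 and 240.2 to 353 in RNY1+/+ and RNY1-/- ProteinFx, with S100a8 the most abundant (91.0 to 209 CPM). Of 6 eosinophil markers, Prg2, Epx, Ear1 and Il5ra stayed under 1 CPM throughout. Their list, most of it Ccr3 (up to 19.1 CPM), summed to 7.65 to 13.6 CPM in PBS, 0.801 to 1.46 and 1.31 to 2.46 in the EVFx groups, and 14.7 to 21.4 and 12.5 to 17.1 in the ProteinFx groups. The part of these shifts in the results was not tested. T cell markers summed to 0.259 to 9.02 CPM (Cd3e, Cd3d, Cd8a and Trac under 1), B cell markers to at most 2.24, dendritic cell markers to at most 0.797, erythroid markers to at most 0.35, airway epithelium to 2.17 to 15.9 (mostly Krt8; Scgb1a1, Scgb3a1, Sftpc and Muc5ac under 1) and fibroblast markers to 5.12 to 26.3 (Col1a1 or Col3a1 the most abundant). In bulk samples, fewer cells of a type and less RNA per cell cannot be told apart.

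Some libraries stood apart. The spread between 2 libraries over that of counting alone was 31.6, 34.8 and 16.8 for PBS replicate 3 against PBS replicates 1, 2 and 4, and 2.3 between PBS replicates 1 and 2. The RNY1-/- ProteinFx libraries formed 2 pairs, with ratios of 3.5 (replicates 1 and 2) and 2.57 (replicates 3 and 4) within them and 13.3 to 15.7 across them. The RNY1-/- EVFx libraries paired in the same way, less widely, with 3.06 and 4.01 within and 6.11 to 9.04 across. Replicates 1 and 2 were close in all 5 groups, at 2.3 to 3.6. Whether replicates are separate cultures or animals is not in the labels, so p-values measure the spread between these samples, and that spread can be technical. Called means an adjusted p under 0.05 in edgeR's quasi-likelihood test, fitted over all genes and scaled by trimmed mean of M-values (TMM). Values after ± are standard deviations over the 4 libraries of a group for CPM. For log2 fold changes they are standard errors worked back from the fold change and the F statistic of the quasi-likelihood test. Comparisons against PBS share the same 4 PBS libraries. Of the 2 rows for Rny1, both read 1 to 1.5 counts in RNY1+/+ EVFx and at most 0.5 elsewhere. These are too few to check a label, and since the macrophages were wild type they check none.

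Sod2 stood at 86.2, 79.4, 93.5 and 77.9 CPM in the PBS libraries. It reached 1605, 1820.3, 1871 and 1832 CPM with RNY1+/+ EVFx and 1559, 1631, 1666 and 1833 CPM with RNY1-/- EVFx. With RNY1+/+ ProteinFx it read 1096, 1262, 1177 and 1827 CPM, and with RNY1-/- ProteinFx 401, 429, 495 and 541 CPM. Every library given a fraction lay above every PBS library, and the RNY1-/- ProteinFx libraries made up a middle level that overlapped neither the PBS group nor any other. The order of the means was RNY1+/+ EVFx, RNY1-/- EVFx, RNY1+/+ ProteinFx, RNY1-/- ProteinFx and PBS. The first 2 groups overlapped and did not pass the test of their difference (log2 -0.02 ± 0.0842, adjusted p = 0.86), though with trends in gene length and GC content removed this read -0.39 and was called. Against PBS, Sod2 rose in 4 of 4 libraries of each group, by log2 4.58 ± 0.116 (RNY1+/+ EVFx, adjusted p = 2.03e-09), 4.55 ± 0.125 (RNY1-/- EVFx, 3.04e-09), 4.17 ± 0.187 (RNY1+/+ ProteinFx, 1.1e-08) and 2.54 ± 0.147 (RNY1-/- ProteinFx, 6.79e-07). Between fractions of RNY1+/+ donors, the log2 fold change of Sod2 was -0.41 ± 0.141 (adjusted p = 0.0204, lower with ProteinFx in 3 of 4 libraries), with 1 ProteinFx library (replicate 4) inside the EVFx range. That call was lost without RNY1+/+ ProteinFx replicate 1 (-0.31), 2 (-0.37) or 3 (-0.34). Between fractions of RNY1-/- donors, the log2 fold change was -2.01 ± 0.138 (adjusted p = 4.37e-07, lower in 4 of 4 libraries).

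Sod1 went the other way. It read 273, 262, 166 and 227 CPM in PBS. With EVFx it read 154, 146, 149.6 and 172 CPM from RNY1+/+ donors and 108, 127, 130.2 and 103 CPM from RNY1-/- donors. With ProteinFx it read 48.2, 59.3, 60.3 and 48.6 CPM from RNY1+/+ donors and 82.0, 82.5, 53.6 and 57.7 CPM from RNY1-/- donors. All ProteinFx libraries lay below all others, PBS replicate 3 lay within the RNY1+/+ EVFx range, and in RNY1-/- ProteinFx replicates 1 and 2 lay above replicates 3 and 4. The means fell in the order PBS, RNY1+/+ EVFx, RNY1-/- EVFx, RNY1-/- ProteinFx and RNY1+/+ ProteinFx. The last 2 did not pass the test of their difference (log2 0.28 ± 0.142, adjusted p = 0.322). Against PBS the log2 fold change was -1.94 ± 0.162 with RNY1+/+ ProteinFx (adjusted p = 2.23e-06) and -1.69 ± 0.19 with RNY1-/- ProteinFx (9.92e-05), lower in 4 of 4 libraries each. It was -0.75 ± 0.152 with RNY1-/- EVFx (adjusted p = 0.00156, lower in 4 of 4 libraries). With RNY1+/+ EVFx, where ranges overlapped, it was -0.40 ± 0.147 (adjusted p = 0.0453, lower than the PBS mean in 4 of 4 libraries). That last call was lost in 10 of 15 alternatives, among them leaving out PBS replicate 1 (-0.32), 2 (-0.35) or 4 (-0.40) or RNY1+/+ EVFx replicate 1 (-0.40), 2 (-0.37), 3 (-0.38) or 4 (-0.45).

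**Figure D1:**
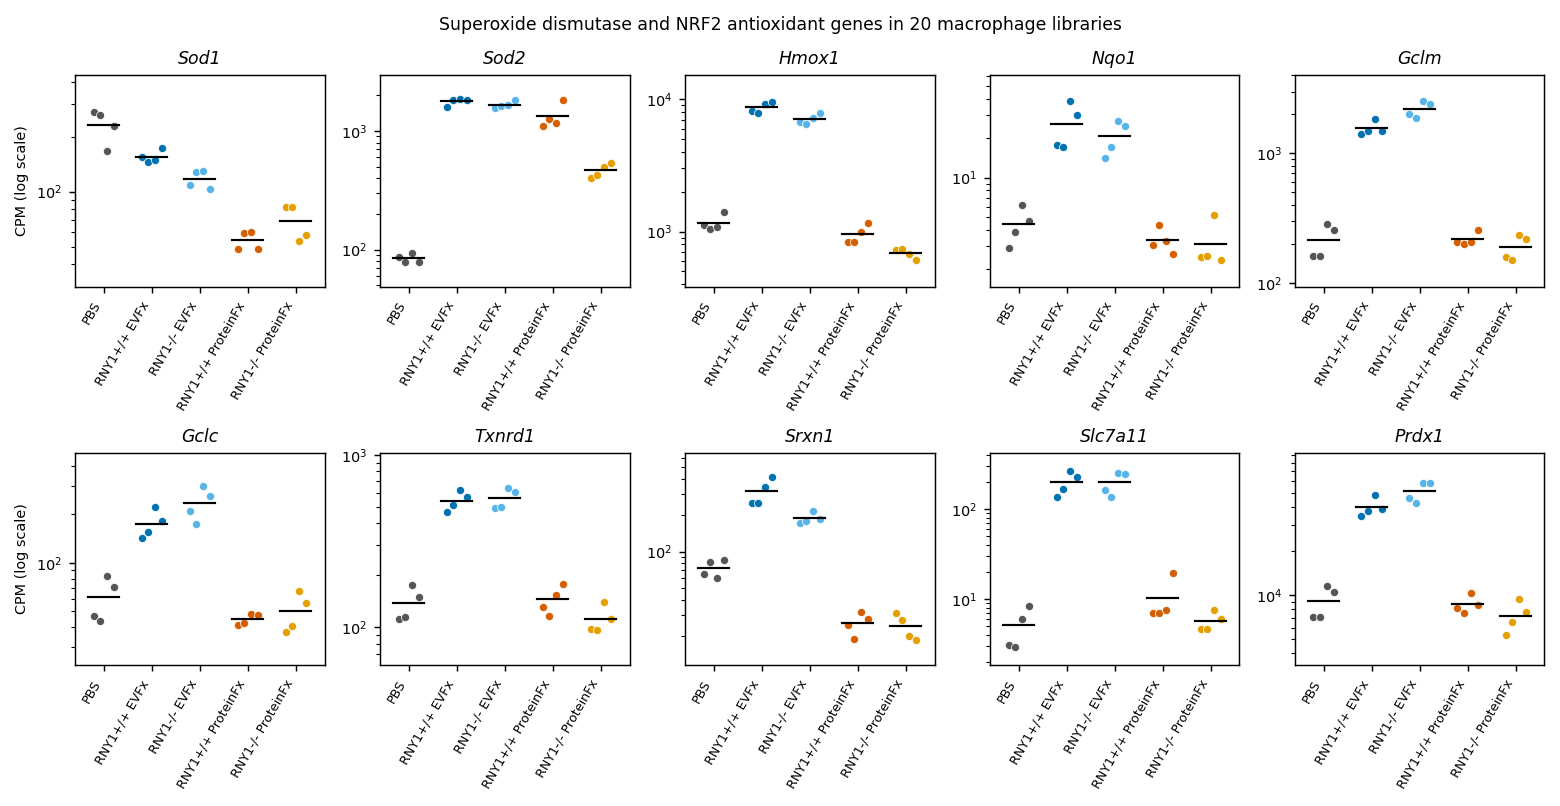
Level of each of the 10 genes in CPM (log axis) in each of 20 libraries, 4 points per treatment group, with a bar at the group mean. Sod2 is higher in every group given a fraction, Sod1 is lowest with ProteinFx, and the 8 NRF2 targets are high in the EVFx groups alone, apart from the smaller differences given in the text.

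Hmox1 encodes haem oxygenase 1, which breaks haem down into biliverdin, iron and carbon monoxide. It read 1125, 1038, 1075 and 1411 CPM in PBS, 8177, 7894, 9180.3 and 9591 CPM with RNY1+/+ EVFx and 6713, 6530.0, 7270.2 and 7815 CPM with RNY1-/- EVFx. With ProteinFx it read 837, 837, 995 and 1154 CPM (RNY1+/+) and 721, 737, 673 and 614 CPM (RNY1-/-). The EVFx libraries lay far above the rest, and the RNY1-/- ProteinFx libraries lay below every other library. In descending order of means the groups were RNY1+/+ EVFx, RNY1-/- EVFx, PBS, RNY1+/+ ProteinFx and RNY1-/- ProteinFx. PBS and RNY1+/+ ProteinFx overlapped (log2 -0.11 ± 0.149, adjusted p = 0.54; with length and GC trends removed it turned to 0.21). Hmox1 rose against PBS by log2 3.08 ± 0.139 with RNY1+/+ EVFx (adjusted p = 3.73e-08) and 2.85 ± 0.142 with RNY1-/- EVFx (5.95e-08), higher in 4 of 4 libraries each. With RNY1-/- ProteinFx its log2 fold change was -0.69 ± 0.127 (adjusted p = 0.00242, lower in 4 of 4 libraries).

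Nqo1 encodes a quinone reductase that spends NADPH or NADH on reductions of 2 electrons. It was the member with the fewest counts, at 4.38 ± 1.39 CPM in PBS, 25.9 ± 10.3 with RNY1+/+ EVFx, 20.9 ± 6.29 with RNY1-/- EVFx, 3.31 ± 0.721 with RNY1+/+ ProteinFx and 3.12 ± 1.37 with RNY1-/- ProteinFx. The EVFx libraries (17.1 to 38.4 and 14.1 to 27.3 CPM) overlapped each other and lay above all others. It rose by log2 2.74 ± 0.32 (RNY1+/+ EVFx, adjusted p = 4.16e-05) and 2.49 ± 0.278 (RNY1-/- EVFx, 2.53e-05) in 4 of 4 libraries each. The PBS and ProteinFx groups overlapped, at log2 -0.24 ± 0.276 (adjusted p = 0.471) and -0.51 ± 0.33 (0.236) against PBS for RNY1+/+ and RNY1-/- donors.

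Slc7a11, Gclm and Gclc serve glutathione synthesis. Slc7a11 is the light chain of the exchanger that brings in cystine for glutamate, and Gclc and Gclm are the catalytic and modifier subunits of glutamate-cysteine ligase, the rate-limiting enzyme. Slc7a11 read 3.07, 2.94, 5.95 and 8.36 CPM in PBS, 136, 168, 264 and 228 CPM with RNY1+/+ EVFx and 162, 137, 249.8 and 244 CPM with RNY1-/- EVFx. It read 6.89, 6.93, 7.54 and 19.6 CPM with RNY1+/+ ProteinFx and 4.58, 4.62, 7.57 and 5.97 CPM with RNY1-/- ProteinFx. The EVFx groups overlapped each other and lay above all other libraries, and RNY1+/+ ProteinFx replicate 4 stood above the rest of its group. The means fell in the order RNY1+/+ EVFx, RNY1-/- EVFx, RNY1+/+ ProteinFx, RNY1-/- ProteinFx and PBS. Slc7a11 rose by log2 5.47 ± 0.336 with RNY1+/+ EVFx (adjusted p = 3e-07) and 5.53 ± 0.34 with RNY1-/- EVFx (2.48e-07), higher in 4 of 4 libraries each and the largest fold changes among the 10 genes against PBS. With RNY1+/+ ProteinFx it was called at log2 1.22 ± 0.436 (adjusted p = 0.0332, above the PBS mean in 4 of 4 libraries, ranges overlapping). This call was lost without PBS replicate 1 (1.04) or 2 (1.00) or RNY1+/+ ProteinFx replicate 4 (0.64), with total-count scaling (1.04) and with length and GC trends removed (0.78). With RNY1-/- ProteinFx it stood at log2 0.18 ± 0.365 (adjusted p = 0.717), a value that turned to -0.19 with length and GC trends removed and to -0.04 without PBS replicate 2.

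Gclm read 160.0, 159.5, 282 and 254 CPM in PBS, 1402, 1493, 1832 and 1498 CPM with RNY1+/+ EVFx and 2007, 1889.7, 2538 and 2413 CPM with RNY1-/- EVFx. In the ProteinFx groups it read 206, 200.2, 208 and 257 CPM (RNY1+/+) and 157, 149, 232 and 217 CPM (RNY1-/-). The 4 RNY1-/- EVFx libraries were the highest of all, the 4 RNY1+/+ EVFx libraries came next, and RNY1+/+ ProteinFx, PBS and RNY1-/- ProteinFx, in that order of means, overlapped. In each of the 5 groups, replicates 1 and 2 lay below replicates 3 and 4, and the same held for Gclc, Slc7a11, Txnrd1 and Prdx1. The tests used no term for the replicate number, so for these genes this shared order stayed in the spread that the tests used. Gclm rose by log2 3.04 ± 0.208 with RNY1+/+ EVFx (adjusted p = 6.84e-07) and 3.61 ± 0.22 with RNY1-/- EVFx (2.33e-07), higher in 4 of 4 libraries each. Against PBS it stood at 0.20 ± 0.193 (adjusted p = 0.4) with RNY1+/+ ProteinFx and -0.10 ± 0.234 (0.747) with RNY1-/- ProteinFx. With length and GC trends removed those read -0.24 and -0.50, and the second was then called. The second also turned positive without PBS replicate 3 (0.04) or RNY1-/- ProteinFx replicate 2 (0.02). Gclc averaged 61.3 ± 19.2 CPM in PBS, 175 ± 34.5 with RNY1+/+ EVFx, 237 ± 55.6 with RNY1-/- EVFx, 44.7 ± 3.66 with RNY1+/+ ProteinFx and 50.3 ± 13.8 with RNY1-/- ProteinFx. Its EVFx libraries, at 143 to 221 and 174 to 301 CPM, overlapped each other and lay above all others, and the other 3 groups overlapped. Gclc rose by log2 1.70 ± 0.221 (RNY1+/+ EVFx, adjusted p = 9.46e-05) and 2.20 ± 0.237 (RNY1-/- EVFx, 1.94e-05) in 4 of 4 libraries each, and stood at -0.28 ± 0.198 (0.244) and -0.22 ± 0.259 (0.517) with RNY1+/+ and RNY1-/- ProteinFx.

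Txnrd1, Srxn1 and Prdx1 act in the thioredoxin system. Prdx1 removes peroxides, thioredoxin reductase 1 (Txnrd1) recharges the thioredoxin that reduces it, and sulfiredoxin (Srxn1) restores peroxiredoxins that have been over-oxidised. Srxn1 read 65.0, 82.0, 60.6 and 84.7 CPM in PBS, 255, 250.4, 344 and 411 CPM with RNY1+/+ EVFx and 174, 179.8, 217 and 187 CPM with RNY1-/- EVFx. It read 24.7, 19.01, 31.9 and 27.4 CPM with RNY1+/+ ProteinFx and 31.2, 27.3, 19.9 and 18.4 CPM with RNY1-/- ProteinFx. No library of one level reached another: RNY1+/+ EVFx was highest, then RNY1-/- EVFx, then PBS, and the ProteinFx groups, which overlapped each other, were lowest. Srxn1 rose by log2 2.28 ± 0.185 with RNY1+/+ EVFx (adjusted p = 2.5e-06) and 1.61 ± 0.135 with RNY1-/- EVFx (2.76e-06), higher in 4 of 4 libraries each. Its log2 fold change was -1.33 ± 0.173 with RNY1+/+ ProteinFx (adjusted p = 7.16e-05) and -1.52 ± 0.18 with RNY1-/- ProteinFx (0.000145), lower in 4 of 4 libraries each.

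Prdx1 read 7052, 7131, 11485 and 10571 CPM in PBS, 34619, 37668, 48355 and 38695 CPM with RNY1+/+ EVFx and 46099, 42613, 58389 and 58199 CPM with RNY1-/- EVFx. It read 8210.0, 7503, 10366 and 8616 CPM with RNY1+/+ ProteinFx and 5333, 6567, 9348 and 7625 CPM with RNY1-/- ProteinFx. The EVFx groups overlapped each other and lay above all other libraries, and PBS and both ProteinFx groups overlapped. The means fell in the order RNY1-/- EVFx, RNY1+/+ EVFx, PBS, RNY1+/+ ProteinFx and RNY1-/- ProteinFx. Prdx1 rose by log2 2.31 ± 0.195 with RNY1+/+ EVFx (adjusted p = 3.42e-06) and 2.75 ± 0.203 with RNY1-/- EVFx (1.04e-06), in 4 of 4 libraries each. With RNY1+/+ ProteinFx it stood at 0.11 ± 0.179 (adjusted p = 0.633), which turned to -0.06 with total-count scaling and -0.31 with length and GC trends removed. With RNY1-/- ProteinFx it stood at -0.25 ± 0.223 (adjusted p = 0.393), and at -0.64 with length and GC trends removed, where it was called. It was also called at -0.25, with a standard error of 0.083, when a term for the replicate number was added (a replicate block). Counts of Prdx1 were not whole in 19 of 20 libraries, and those of Sod2 and Gclm in 20, since reads that map to several places were shared out. Txnrd1 averaged 138 ± 29.9 CPM in PBS, 542 ± 71.1 with RNY1+/+ EVFx, 559 ± 75.1 with RNY1-/- EVFx, 145 ± 27.5 with RNY1+/+ ProteinFx and 112 ± 20.4 with RNY1-/- ProteinFx. Its EVFx libraries (465 to 629 and 493 to 641 CPM) overlapped each other and lay above the rest. Txnrd1 rose by log2 2.15 ± 0.164 (RNY1+/+ EVFx, adjusted p = 1.6e-06) and 2.26 ± 0.168 (RNY1-/- EVFx, 1.07e-06), in 4 of 4 libraries each. With RNY1+/+ ProteinFx its log2 fold change was 0.24 ± 0.177 (adjusted p = 0.262), and without PBS replicate 3 it was called at 0.37. With RNY1-/- ProteinFx it was -0.24 ± 0.186 (adjusted p = 0.328), and with the replicate block it was called at -0.23. Same-numbered libraries of PBS and RNY1-/- ProteinFx correlated at 0.04 to 0.73, over 0.1 in 3 of 4 pairs.

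Counted together against PBS, 9 of the 10 genes rose and 1 (Sod1) fell with RNY1+/+ EVFx, where 21.7% of all genes tested were higher and 22.8% lower. With RNY1-/- EVFx 9 again rose and 1 fell, beside 27.7% and 30.7% of all genes. With RNY1+/+ ProteinFx 2 rose (Sod2, Slc7a11) and 2 fell (Sod1, Srxn1), beside 25.9% and 29.3% of all genes. With RNY1-/- ProteinFx 1 rose (Sod2) and 3 fell (Sod1, Hmox1, Srxn1), beside 16.7% and 19% of all genes. The median log2 fold change of the 10 genes was 2.53, 2.62, -0.00349 and -0.24 in these 4 comparisons, and -0.03, -0.03, -0.03 and -0.03 over all genes. Between fractions of RNY1+/+ donors, 10 of 10 genes were lower with ProteinFx than with EVFx (median -2.52), beside 31.1% of all genes higher and 32.2% lower (median -0.02). For RNY1-/- donors 10 of 10 were again lower (median -3.01), beside 14.6% of all genes higher and 14.6% lower (median 0.01). For RNY1+/+ donors the log2 fold change was -1.53 ± 0.0952 for Sod1, -3.19 ± 0.132 for Hmox1, -2.97 ± 0.302 for Nqo1, -4.21 ± 0.29 for Slc7a11, -2.84 ± 0.119 for Gclm, -1.97 ± 0.13 for Gclc, -3.61 ± 0.18 for Srxn1, -2.20 ± 0.136 for Prdx1 and -1.90 ± 0.135 for Txnrd1 (adjusted p at most 1.08e-06). For RNY1-/- donors it was, in the same order, -0.93 ± 0.135, -3.55 ± 0.12, -3.02 ± 0.303, -5.39 ± 0.271, -3.72 ± 0.197, -2.43 ± 0.227, -3.12 ± 0.15, -3.00 ± 0.207 and -2.51 ± 0.164 (adjusted p at most 0.000225). Apart from Sod2 for RNY1+/+ donors, none of these ranges overlapped. The share of all genes without overlap was not counted, so this is not a trait particular to these genes. With total-count scaling in place of TMM, the median over all genes read -0.21 and -0.27 for RNY1+/+ and RNY1-/- EVFx against PBS, -0.20 and -0.10 for the ProteinFx groups against PBS, -0.07 and 0.11 for RNY1-/- against RNY1+/+ in EVFx and ProteinFx, -0.02 and 0.19 for ProteinFx against EVFx in RNY1+/+ and RNY1-/- donors, and 0.17 for the difference of the genotype effects. Under it the signs of Prdx1 (RNY1+/+ ProteinFx against PBS), Slc7a11 (EVFx, by genotype) and Nqo1 (difference of the genotype effects) flipped, none of them called. The balance of called genes moved too: for RNY1-/- donors, ProteinFx against EVFx went from 1520 higher and 1523 lower to 2509 and 967. The difference of the genotype effects went from 1754 and 1694 to 2576 and 928, and genotype in ProteinFx from 230 and 353 to 388 and 273. Against PBS, RNY1+/+ EVFx went from 2348 and 2460 to 1661 and 3476, RNY1-/- EVFx from 2968 and 3289 to 1929 and 4536, and RNY1+/+ ProteinFx from 2805 and 3174 to 1986 and 4087. The genes called for RNY1-/- ProteinFx against PBS numbered 3878, but 2517 without PBS replicate 1, 2421 without PBS replicate 2, 2436 without RNY1-/- ProteinFx replicate 4 and 5728 without PBS replicate 3. Among the 10 genes, leaving out PBS replicate 3 changed no call against PBS but that of Txnrd1 given above. Leaving out either pair of RNY1-/- ProteinFx libraries changed no call of the 10 genes against PBS or against RNY1-/- EVFx.

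**Figure D2:**
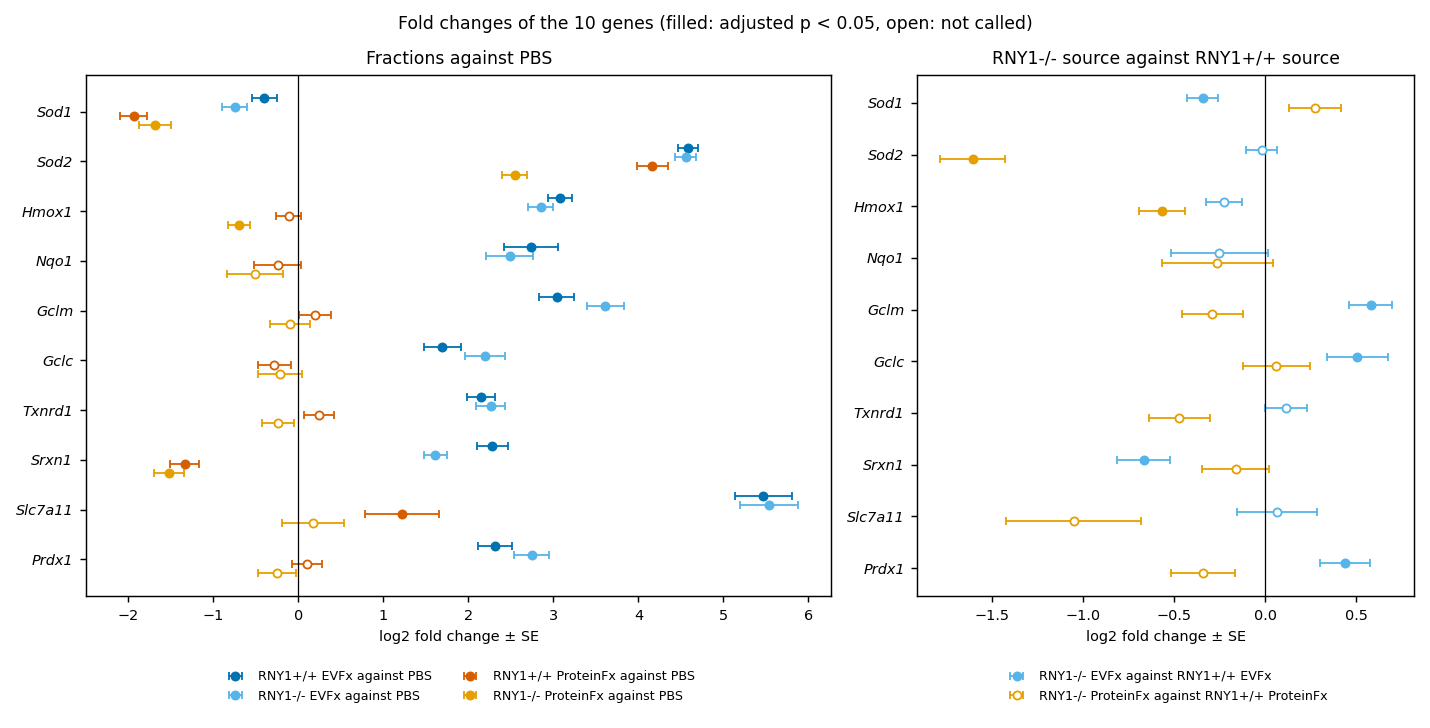
Log2 fold change with its standard error (bars) for the 10 genes, 8 libraries a comparison: fractions against PBS on the left, RNY1-/- against RNY1+/+ donors within each fraction on the right. Filled points were called (adjusted p under 0.05) and open points were not. On the left the EVFx points lie between 1.61 and 5.53 for all genes except Sod1, and on the right Sod2 in ProteinFx, at -1.61, lies farthest from 0.

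The comparison of donor genotypes within EVFx sets fluid from RNY1-/- donors against fluid from RNY1+/+ donors. The paper names GemPharmatech as the source of the knockout mice and JAX as that of all other mice. It does not say whether the RNY1+/+ donors were littermates. In either fraction, donor genotype therefore cannot be told apart from mouse source or from the fluid preparation. Of the markers of other cell types, the summed CPM of 3 lists did not overlap between these groups: airway epithelium at 2.17 to 4.63 (RNY1+/+) and 4.95 to 12.7 (RNY1-/-), fibroblast at 11.8 to 18.7 and 5.12 to 8.75, and T cell at 2.05 to 4.00 and 1.01 to 1.97. Gclm, Gclc and Prdx1 were higher with RNY1-/- EVFx than with RNY1+/+ EVFx, and Srxn1 and Sod1 were lower. Of the 10 genes 3 were higher and 2 lower, beside 25.5% and 26.6% of all genes (median 0.02, all genes -0.00119). Gclm differed by log2 0.58 ± 0.117 (adjusted p = 0.00153, higher in 4 of 4 libraries), Srxn1 by -0.67 ± 0.145 (0.0024, lower in 4 of 4) and Sod1 by -0.34 ± 0.0867 (0.00579, lower in 4 of 4), and for each of them the ranges did not overlap. Gclc differed by 0.51 ± 0.168 (adjusted p = 0.023) and Prdx1 by 0.44 ± 0.139 (0.0186), with overlapping ranges. With length and GC trends removed, Gclm (0.22), Srxn1 (-0.36) and Prdx1 (0.18) were no longer called. With all 20 libraries in 1 fit, Sod1 (-0.33), Gclc (0.51) and Prdx1 (0.45) were not. The Gclc call was also lost without RNY1+/+ EVFx replicate 1 (0.41), 2 (0.43) or 4 (0.51) or RNY1-/- EVFx replicate 3 (0.37) or 4 (0.42). That of Prdx1 was lost without RNY1+/+ EVFx replicate 1 (0.37), 2 (0.39) or 4 (0.41) or RNY1-/- EVFx replicate 3 (0.37) or 4 (0.34). Hmox1 stood at -0.23 ± 0.0987 (adjusted p = 0.07) although its ranges did not overlap, and was called in 5 of 15 alternatives. These were leaving out RNY1+/+ EVFx replicate 2 (-0.29) or RNY1-/- EVFx replicate 4 (-0.31), total-count scaling (-0.30), no filter (-0.27) and a replicate block (-0.23). With length and GC trends removed Hmox1 read 0.06. Nqo1 stood at -0.25 ± 0.268 (adjusted p = 0.448), Txnrd1 at 0.12 ± 0.115 (0.413) and Slc7a11 at 0.07 ± 0.221 (0.813; -0.01 with total-count scaling).

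The same comparison within ProteinFx gave lower Sod2 and Hmox1 with RNY1-/- donors. Sod2 differed by log2 -1.61 ± 0.179 (adjusted p = 0.000276) and Hmox1 by -0.57 ± 0.126 (0.0193), each lower in 4 of 4 libraries with no overlap. The Sod2 call held in 17 of 17 alternatives, at -1.83 to -1.40. The Hmox1 call was lost with a replicate block (-0.55) and without RNY1+/+ ProteinFx replicate 3 (-0.55) or 4 (-0.45) or RNY1-/- ProteinFx replicate 4 (-0.53). Of the 10 genes 2 were lower, beside 3.37% of all genes, and 0 were higher, beside 2.2%. At an unadjusted p under 0.05 edgeR had 4 lower and 0 higher, and DESeq2 called 2 lower and 0 higher. The median was -0.32 for the 10 genes and 0.02 for all genes. The other 8 genes were not called, among them Slc7a11 (-1.05 ± 0.369, adjusted p = 0.131) and Txnrd1 (-0.47 ± 0.167, 0.138). Txnrd1 was called without RNY1-/- ProteinFx replicate 3 (-0.61) and with no filter (-0.46). Slc7a11 was called with no filter (-1.03), and ranged from -1.35 to -0.46 over 17 alternatives. Nqo1 stood at -0.26 ± 0.305 (adjusted p = 0.712), Gclm at -0.29 ± 0.168 (0.38), Gclc at 0.06 ± 0.184 (0.906), Srxn1 at -0.16 ± 0.184 (0.707) and Prdx1 at -0.34 ± 0.176 (0.32). Without RNY1-/- ProteinFx replicates 3 and 4, an alternative planned with the pairs known, 7 of the 10 genes were called, with Sod1 at 0.48, Gclm at -0.65, Txnrd1 at -0.72, Slc7a11 at -1.35 and Prdx1 at -0.68. Over all genes, the 583 called became 2904 without that pair and 866 without replicates 1 and 2. They became 230 without RNY1+/+ ProteinFx replicate 4, 381 without its replicate 1, 342 without RNY1-/- ProteinFx replicate 1 and 875 without its replicate 3.

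Whether the genotype effect differed between fractions was tested over 16 libraries, as the effect in ProteinFx minus that in EVFx, both RNY1-/- against RNY1+/+. Sod2 differed by log2 -1.59 ± 0.21 (adjusted p = 0.000433): 4 of 4 RNY1-/- ProteinFx libraries were below the RNY1+/+ ones, while the EVFx groups overlapped. Gclm differed by -0.87 ± 0.223 (adjusted p = 0.00945), Prdx1 by -0.78 ± 0.245 (0.0223), Txnrd1 by -0.59 ± 0.221 (0.0463) and Sod1 by 0.62 ± 0.168 (0.0125). Of the 10 genes 1 was higher and 4 were lower, beside 16.8% and 16.2% of all genes (median -0.52, all genes -9.44e-06). Sod2 was the 1 gene of these called without RNY1-/- ProteinFx replicates 1 and 2, an alternative added after seeing the data, where Sod1 read 0.37, Gclm -0.56, Txnrd1 -0.35 and Prdx1 -0.50. The Prdx1 call was lost with length and GC trends removed (-0.52) and without RNY1-/- EVFx replicate 4 (-0.69) or RNY1-/- ProteinFx replicate 1 (-0.64) or 2 (-0.71). The Txnrd1 call was lost in 12 of 22 alternatives, among them total-count scaling (-0.43) and leaving out RNY1+/+ EVFx replicate 1 (-0.52), 2 (-0.56) or 4 (-0.61), RNY1-/- EVFx replicate 3 (-0.52) or 4 (-0.52), RNY1+/+ ProteinFx replicate 1 (-0.63), 3 (-0.57) or 4 (-0.46) or RNY1-/- ProteinFx replicate 1 (-0.50) or 2 (-0.50). Slc7a11, at -1.16 ± 0.494 (adjusted p = 0.0749), was called without RNY1+/+ EVFx replicate 3 (-1.32) or RNY1-/- EVFx replicate 2 (-1.31), and with a replicate block (-1.01). Hmox1 stood at -0.34 ± 0.165 (adjusted p = 0.107) and was called with length and GC trends removed (-0.66), and Srxn1 stood at 0.51 ± 0.251 (0.118) and was called with total-count scaling (0.68). Nqo1 stood at -0.03 ± 0.502 (adjusted p = 0.967) and Gclc at -0.46 ± 0.277 (0.2). With a replicate block Gclc was called (-0.45). Without RNY1-/- ProteinFx replicates 3 and 4, also added after seeing the data, Gclc (-0.83) and Srxn1 (0.71) were called. Over all genes, the 3448 called became 2294 without RNY1+/+ EVFx replicate 4, 2143 without RNY1-/- ProteinFx replicate 1 and 1918 without its replicate 2, and 350 without both of the last. They became 5666 without RNY1-/- ProteinFx replicates 3 and 4, and 2132 with length and GC trends removed.

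The NRF2 control list holds 10 genes. Against PBS, 6 of 10 tested were higher with RNY1+/+ EVFx (median 0.78) and 8 of 10 with RNY1-/- EVFx (0.64; 6 higher and 1 lower with total-count scaling). Of all genes, 21.7% and 27.7% were higher in these comparisons, and 22.8% and 30.7% lower. Maff, a small MAF partner, stood at log2 3.56 ± 0.244 and 3.00 ± 0.311 with RNY1+/+ and RNY1-/- EVFx. Sqstm1 (p62), an autophagy receptor that binds KEAP1, stood at 2.90 ± 0.189 and 2.20 ± 0.171. Nfe2l2 itself stood at 0.00154 ± 0.144 with RNY1+/+ EVFx (adjusted p = 0.994) and at 0.64 ± 0.148 with RNY1-/- EVFx (0.00334, above the PBS mean in 4 of 4 libraries). Keap1 rose by 0.93 ± 0.152 with RNY1+/+ EVFx, and by 0.52 ± 0.169 with RNY1-/- EVFx, a call lost in 3 of 15 alternatives (total-count scaling, 0.28, and leaving out RNY1-/- EVFx replicate 1, 0.47, or 2, 0.44). It was also called with RNY1+/+ ProteinFx, at 0.38 ± 0.137 (adjusted p = 0.0346), a call lost in 9 of 15 alternatives. Bach1 rose with ProteinFx, by 1.09 ± 0.122 (RNY1+/+) and 1.19 ± 0.18 (RNY1-/-), beside 0.11 ± 0.133 (adjusted p = 0.525) and 0.63 ± 0.129 (0.00164) with RNY1+/+ and RNY1-/- EVFx. Against PBS, 25.9% of all genes were higher and 29.3% lower with RNY1+/+ ProteinFx, and 16.7% and 19% with RNY1-/- ProteinFx. With RNY1+/+ ProteinFx 4 of 9 of the list were higher (median 0.27; 2 higher and 3 lower with total-count scaling), and with RNY1-/- ProteinFx 1 was higher and 1 lower (0.07). By donor genotype in EVFx 2 of 10 were higher and 5 lower (median -0.24; 3 higher and 3 lower with length and GC trends removed), beside 25.5% and 26.6% of all genes, with Nfe2l2 at 0.65 ± 0.0792 and Sqstm1 at -0.69 ± 0.0922.

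Another list holds 25 known NRF2 targets outside the 10. With RNY1+/+ EVFx 18 of 25 were higher and 2 lower (median 1.15), and with RNY1-/- EVFx 13 of 24 were higher and 5 lower (0.44). Of all genes, 21.7% and 27.7% were higher in these comparisons, and 22.8% and 30.7% lower. The glutathione transferase Gsta3 rose by 3.99 ± 0.275 and 4.53 ± 0.278 with RNY1+/+ and RNY1-/- EVFx, malic enzyme Me1 by 3.61 ± 0.243 and 3.58 ± 0.25, and glutathione reductase Gsr by 2.06 ± 0.196 and 2.39 ± 0.196. With ProteinFx 15 of 23 were lower and 2 higher with RNY1+/+ donors (median -0.87), and 14 of 23 lower and 2 higher with RNY1-/- donors (-0.996). Of all genes, 29.3% and 19% were lower in these comparisons, and 25.9% and 16.7% higher. Epoxide hydrolase Ephx1 stood at -2.51 ± 0.268 and -1.65 ± 0.27 with RNY1+/+ and RNY1-/- ProteinFx. Ferritin light chain Ftl1 stood at -2.15 ± 0.372 and -2.12 ± 0.414, and the second was not called without RNY1-/- ProteinFx replicates 3 and 4 (-1.77). By donor genotype in EVFx, 15 of 25 were lower and 4 higher (median -0.33; 10 lower and 1 higher with length and GC trends removed), beside 26.6% of all genes lower and 25.5% higher, among them Ftl1 at -1.40 ± 0.144 and transketolase Tkt at -0.95 ± 0.121. In ProteinFx, 1 of 21 was lower (Gsr, -0.77 ± 0.175, a call lost without RNY1+/+ ProteinFx replicate 4, -0.55, RNY1-/- ProteinFx replicate 1, -0.74, or 2, -0.68, or both of the last, -0.60), and at an unadjusted p under 0.05 there were 3 higher and 4 lower. Over all genes 2.2% were called higher and 3.37% lower there. In the difference of the genotype effects, 8 of 24 were higher and 2 lower (median 0.28; 12 and 2 with total-count scaling, 8 and 5 with DESeq2), beside 16.8% and 16.2% of all genes.

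Over all genes, 21.7% were higher and 22.8% lower with RNY1+/+ EVFx, 27.7% and 30.7% with RNY1-/- EVFx, 25.9% and 29.3% with RNY1+/+ ProteinFx, and 16.7% and 19% with RNY1-/- ProteinFx, the shares that stand beside each list's counts against PBS. Of glutathione system genes, 8 of 18 tested with RNY1+/+ EVFx were higher and 3 lower (median 0.15, -0.03 with total-count scaling), and with RNY1-/- EVFx 7 and 4 (0.23, -0.01 with total-count scaling). Glutathione synthetase Gss rose by 2.95 ± 0.199 with RNY1+/+ EVFx, while Mgst3, a microsomal transferase, stood at -2.47 ± 0.227 there and at -2.80 ± 0.231 with RNY1-/- EVFx. With ProteinFx 3 of 19 were higher and 6 lower for RNY1+/+ donors (median -0.41), and 3 and 6 for RNY1-/- donors (-0.46). Glutaredoxin Glrx rose there by 3.13 ± 0.117 and 2.50 ± 0.112, and Mgst3 stood at -3.76 ± 0.262 and -2.69 ± 0.251. Among thioredoxin and peroxiredoxin genes, 5 of 16 were higher and 7 lower with RNY1+/+ EVFx, 4 and 8 with RNY1-/- EVFx, 2 and 9 with RNY1+/+ ProteinFx, and 1 and 3 with RNY1-/- ProteinFx (medians 0.02, -0.28, -0.43 and -0.31; the first read -0.16 with total-count scaling). Sestrin 1 (Sesn1) was lower in all 4, at -2.57 ± 0.137, -2.21 ± 0.13, -1.52 ± 0.13 and -1.06 ± 0.15, and peroxiredoxin 5 (Prdx5) rose by 2.46 ± 0.278 with RNY1+/+ EVFx. Catalase (Cat), which clears the hydrogen peroxide that superoxide dismutases make, rose with EVFx by 1.49 ± 0.16 (RNY1+/+) and 1.71 ± 0.161 (RNY1-/-). With ProteinFx it was lower, at -1.42 ± 0.163 and -1.26 ± 0.158. Of its 3-gene list with Ccs and Sod3, 2 were tested. Ccs, the copper chaperone of Sod1, was called lower with RNY1+/+ ProteinFx (-1.20 ± 0.358), and not without RNY1+/+ ProteinFx replicate 4 (-1.003) or with length and GC trends removed (-0.56). It was also called lower with RNY1-/- EVFx (-0.97 ± 0.337), a call lost with length and GC trends removed (-0.38) and without PBS replicate 1 (-0.76), 2 (-0.86) or 4 (-0.98) or RNY1-/- EVFx replicate 1 (-1.01), 2 (-0.83) or 3 (-0.92).

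For each of the 10 genes, the 3 genes outside the 10 that were most alike in pattern were found among 7551 genes by Pearson's r of log2 CPM over the 20 libraries. These fall into 5 groups, so r is a description of the pattern, not a test. The other members were left out of this ranking, where some would have come before genes named here (r of 0.995 for Gclm with Prdx1 and 0.99 for Slc7a11 with Txnrd1). For Sod1 these were Atp5if1 (0.984), Camk1 (0.976) and Cd81 (0.971), and for Sod2 Tlr1 (0.994), Plpp1 (0.992) and Rasgrp1 (0.992). For Hmox1 they were Esd (0.995), Ppfibp2 (0.989) and Slc11a1 (0.987), and for Nqo1 Afp (0.973), Gm21399 (0.971) and Scd1 (0.966). For Slc7a11 they were Ampd3 (0.987), Kif2a (0.987) and Pum3 (0.986), for Gclm Slc22a4 (0.997), Ampd3 (0.995) and ENSMUSG00000132147 (0.993), and for Gclc Spryd7 (0.987), Tshz1 (0.987) and Slc22a4 (0.985). For Txnrd1 they were Lrp8 (0.993), Gsr (0.99) and Zfand5 (0.989), for Srxn1 Pgd (0.994), Tpm4 (0.993) and Abcc1 (0.992), and for Prdx1 ENSMUSG00000132147 (0.996), Gm21399 (0.993) and Lrp8 (0.992). Esd, Gsr, Pgd and Abcc1 in these sets are also in the list of other NRF2 targets. Gm21399 is a pseudogene whose RefSeq synonym is Prxi-ps2; whether it and Prdx1 share reads was not tested.

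The promoters of the 10 genes were searched for the core letters of the antioxidant response element, TGACNNNGC, on both strands. Whether a match bears on the levels of a gene was not tested. RefSeq windows (GRCm38.p6, 250 bases before to 50 after a start) were held for 8 of the 10 genes, in 10 windows. Hmox1 and Gclc had no entry. Of 32851 windows of this length, 4071 (12.4%) hold the letters. A match was found for 5 genes, 1 window each and always as GCNNNGTCA: Sod1 (from base -56), Gclm (from -134), Txnrd1 (from -92, in 1 of 3 windows), Srxn1 (from 29) and Prdx1 (from -133), counted from the start. The windows of Sod2, Nqo1 and Slc7a11 and the other two of Txnrd1 do not hold these letters, which says only that they are not in this window. Windows of the 4 NRF2 targets with a match are shown, with the matching letters in capitals.
Prdx1 (chr4:116685349-116685648, + strand): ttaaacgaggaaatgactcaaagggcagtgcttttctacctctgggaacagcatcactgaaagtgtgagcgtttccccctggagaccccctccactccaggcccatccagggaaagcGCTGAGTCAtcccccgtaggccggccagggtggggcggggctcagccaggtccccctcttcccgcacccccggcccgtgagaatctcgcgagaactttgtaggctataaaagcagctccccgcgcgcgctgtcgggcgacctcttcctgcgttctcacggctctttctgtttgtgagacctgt
Srxn1 (chr2:152105274-152105573, + strand): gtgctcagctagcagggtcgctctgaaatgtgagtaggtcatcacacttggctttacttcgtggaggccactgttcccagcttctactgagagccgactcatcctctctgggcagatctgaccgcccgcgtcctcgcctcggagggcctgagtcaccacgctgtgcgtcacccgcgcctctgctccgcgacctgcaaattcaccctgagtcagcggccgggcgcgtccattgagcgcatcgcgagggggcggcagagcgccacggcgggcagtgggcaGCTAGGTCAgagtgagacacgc
Txnrd1 (chr10:82858956-82859255, + strand): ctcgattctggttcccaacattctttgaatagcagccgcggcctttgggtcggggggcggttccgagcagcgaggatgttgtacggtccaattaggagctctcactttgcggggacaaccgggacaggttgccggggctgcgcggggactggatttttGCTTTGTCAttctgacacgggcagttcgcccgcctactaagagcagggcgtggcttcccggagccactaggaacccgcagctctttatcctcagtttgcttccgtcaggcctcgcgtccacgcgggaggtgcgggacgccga
Gclm (chr3:122245307-122245606, + strand): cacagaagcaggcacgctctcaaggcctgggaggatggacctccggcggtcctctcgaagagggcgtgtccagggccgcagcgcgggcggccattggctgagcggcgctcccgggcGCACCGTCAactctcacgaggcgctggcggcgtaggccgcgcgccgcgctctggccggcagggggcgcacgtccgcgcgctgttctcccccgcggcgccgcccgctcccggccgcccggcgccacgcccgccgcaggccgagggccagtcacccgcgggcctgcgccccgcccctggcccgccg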

How the data were processed

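The deposited table holds expected counts and CPM for 20 libraries, both made by the authors; per the labels, reads were filtered (fastp 0.24.0), aligned to GRCm39 (STAR 2.7.11) and counted by strand with featureCounts of Subread 2.1.1, with multi-mapping reads shared as fractions. The annotation release is not stated. CPM equals count over library total. Expected counts were rounded to whole numbers and tested with edgeR 4.0.16 (quasi-likelihood test, TMM, Benjamini-Hochberg over all genes tested) in R 4.3.3, where genes had to pass filterByExpr and average 3 CPM or more across the libraries compared (8, or 16 for the difference of genotype effects). Rounding was the sole change made to the counts. Total counts of 2510005 to 8277366 per library set the precision.

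Members and lists were chosen with earlier results of these data known. Named genes were all 10 members, Nfe2l2, Keap1 and Bach1, and genes of the other lists taken from the 3 per comparison with the largest absolute log2 fold change among those called; not all of these are named. The 3 nearest patterns per member were taken among genes with a mean of at least 10 CPM (TMM, prior count 2). The study's control genes Rab14, Arpc2 and Cltc gave 0 calls with edgeR in the comparisons, and 0 at an unadjusted p under 0.05, except Cltc in ProteinFx against EVFx, at 0.25 in RNY1+/+ (adjusted p = 0.0269, lost in 6 of 15 alternatives: no filter, 0.21, length and GC trends removed, -0.10, and leaving out RNY1+/+ EVFx replicate 1, 0.20, or 2, 0.25, or RNY1+/+ ProteinFx replicate 3, 0.22, or 4, 0.20) and 0.21 in RNY1-/- donors (unadjusted p = 0.0327, called by DESeq2). With total-count scaling 2 of the 3 were called lower with EVFx of either genotype against PBS.

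Alternatives were DESeq2 1.42.0, total-count scaling, other filters, a fold limit (absolute log2 of 1), 1 fit of all 20 libraries, trends in gene length and GC removed (natural splines of the R splines package with 4 degrees of freedom), a replicate block, and leaving out each library. Length and GC were those of the longest GENCODE reference transcript of each gene, and genes without one were left out of that alternative. Libraries of the same replicate number were checked for pairing: their r exceeded 0.1 in every pair only for PBS with RNY1-/- EVFx (0.17 to 0.49) and for RNY1-/- EVFx with RNY1-/- ProteinFx (0.19 to 0.51). A replicate block changed no member's call there, while genes called went from 6257 to 6721 and from 3043 to 3662. The pairing check compared same-numbered libraries over many genes. It did not test the shared order of replicates given above for Gclm, Gclc, Slc7a11, Txnrd1 and Prdx1. Python 3.11.15, NumPy 2.4.6, pandas 2.3.3 and matplotlib 3.10.9 made the summaries and plots.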

Additional observations from a re-analysis of the deposited data

Results flagged for a closer look

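In 3 of 50 sets of 4 libraries (a gene in a group), 1 library stood far from the other 3, where chance gives about 1 in 20. Nqo1 in RNY1-/- ProteinFx replicate 3 read 5.179 CPM, beside 2.33 to 2.52 in the other replicates. Gclm in RNY1+/+ ProteinFx replicate 4 read 256.8 CPM, beside 200.2 to 208 in the others. Slc7a11 in RNY1+/+ ProteinFx replicate 4 read 19.61 CPM, beside 6.89 to 7.54 in the others; without this library its difference from PBS was 0.64 and no longer called.

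The effect of donor genotype differed between the fractions for 5 genes by edgeR's test of the difference, ProteinFx minus EVFx. On the log2 scale this was 0.62 for Sod1, -1.59 for Sod2, -0.87 for Gclm, -0.59 for Txnrd1 and -0.78 for Prdx1. The first and the last 3 were not called without RNY1-/- ProteinFx replicates 1 and 2, an alternative added after seeing the data.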

How the results depend on the processing

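Over the alternatives, 1354 of 1479 gene values kept their direction and their side of the threshold, 57 lost a call, 27 gained one and 41 changed sign, with 0 of those 41 called in either setting. Of 290 counts, 250 stayed within 1.5 times. The replicate block changed no call of the 10 genes for PBS with RNY1-/- EVFx and for RNY1-/- EVFx with RNY1-/- ProteinFx. In the second, Nfe2l2 was called under it (-0.32). Same-numbered libraries of the other pairs of groups had r from -0.52 to 0.73, with 0 to 3 of 4 over 0.1. Depth limits Nqo1 and Slc7a11 most, and by genotype in ProteinFx Nqo1 had a value in 16 of 17 alternatives, as the filter dropped it in 1. Where a construction does not show the cause of a change (fewer libraries, a stricter rule), the cause was not tested.

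With the fold limit added, 1775, 2417, 2313 and 1552 genes were called for RNY1+/+ EVFx, RNY1-/- EVFx, RNY1+/+ ProteinFx and RNY1-/- ProteinFx against PBS, 243 and 191 by genotype in EVFx and ProteinFx (0 and 1 of the 10 genes), and 1413 and 934 for ProteinFx against EVFx in RNY1+/+ and RNY1-/- donors. With length and GC trends removed, Hmox1, Gclm and Prdx1 read 0.21, -0.24 and -0.31 for RNY1+/+ ProteinFx against PBS, and Slc7a11 -0.19 for RNY1-/- ProteinFx. By genotype in EVFx, 3 of the 10 and 3380 genes were then called, with Hmox1 at 0.06 and Slc7a11 at -0.41; in ProteinFx 905 genes were called, and Nqo1 read 0.05 in the difference of genotype effects. Total-count scaling gave Prdx1 -0.06 (RNY1+/+ ProteinFx against PBS), Slc7a11 -0.01 (EVFx by genotype) and Nqo1 0.14 (difference). The replicate block gave 6613 genes for RNY1-/- ProteinFx against PBS, with Txnrd1 at -0.23 and Prdx1 at -0.25 called, and 367 genes and 1 of the 10 by genotype in ProteinFx, with Hmox1 at -0.55 not called. It also called Hmox1 by genotype in EVFx (-0.23), and Gclc (-0.45) and Slc7a11 (-1.01) in the difference, where Nqo1 read 0.02, and not Sod1 for RNY1+/+ EVFx against PBS (-0.38). Without a filter, genotype in ProteinFx gave 946 genes and 4 of the 10. With all 20 libraries in 1 fit, genotype in EVFx gave 2 of the 10.

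Without RNY1-/- ProteinFx replicates 1 and 2, Gclm, Gclc and Prdx1 read 0.20, 0.14 and 0.04 against PBS, Nqo1 and Gclm 0.08 and 0.01 by genotype, and the difference (added after seeing the data) gave 1 of the 10, with Nqo1 at 0.33. Without its replicates 3 and 4, RNY1-/- ProteinFx against PBS gave 1572 genes and Slc7a11 -0.12, genotype gave 2904 genes and 7 of the 10 with Gclc -0.33 and Srxn1 0.04, and ProteinFx against EVFx of RNY1-/- donors gave 4702 genes.

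Leaving out 1 library at a time, Prdx1 for RNY1+/+ ProteinFx against PBS ranged from -0.003 to 0.23. For RNY1-/- ProteinFx against PBS, genes called ranged from 2421 to 5728, Gclm from -0.24 to 0.04 and Slc7a11 from -0.04 to 0.56. By genotype in EVFx, 3 to 5 of the 10 were called, with Sod2 from -0.10 to 0.02 and Slc7a11 from -0.09 to 0.22. By genotype in ProteinFx, 1 to 3 of the 10 and 230 to 875 genes were called, with Gclc from -0.11 to 0.20. In the difference, 3 to 6 of the 10 were called and Nqo1 ranged from -0.26 to 0.13.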

Other observations

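The phagocyte NADPH oxidase makes the superoxide that superoxide dismutases remove. Of its 7 genes, 5 were higher than in PBS with RNY1+/+ EVFx (median 1.36), 4 higher and 1 lower with RNY1-/- EVFx (0.66), 3 higher and 1 lower with RNY1+/+ ProteinFx (0.10, -0.07 with total-count scaling) and 2 higher with RNY1-/- ProteinFx (-0.06). Its catalytic subunit Cybb stood at log2 2.14 ± 0.133, 2.38 ± 0.139, 1.62 ± 0.142 and 1.07 ± 0.13 in these 4 comparisons. Of all genes, 21.7%, 27.7%, 25.9% and 16.7% were higher in them, and 22.8%, 30.7%, 29.3% and 19% lower. By donor genotype in EVFx 5 of 7 were lower (median -0.53), beside 26.6% of all genes, with the small GTPase Rac2 at -0.93 ± 0.126 and Ncf1 at -0.66 ± 0.129; with length and GC trends removed 3 were lower.

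Among genes of haem breakdown and supply, 4 of 10 tested were higher and 2 lower with RNY1+/+ EVFx, 5 and 3 with RNY1-/- EVFx, 1 and 4 of 11 with RNY1+/+ ProteinFx, and 0 and 3 of 11 with RNY1-/- ProteinFx. The medians were 0.06, 0.18, -0.21 and -0.48, and with total-count scaling the first 2 read -0.11 and -0.06. Of all genes, 21.7%, 27.7%, 25.9% and 16.7% were higher in these 4 comparisons, and 22.8%, 30.7%, 29.3% and 19% lower. Spic, a transcription factor known from macrophages that recycle red cells, rose by 4.19 ± 0.169 and 4.20 ± 0.181 with RNY1+/+ and RNY1-/- EVFx, and Alas1, the first enzyme of haem synthesis, by 1.94 ± 0.164 and 1.87 ± 0.189. The haem transporter Slc48a1 was lower with ProteinFx, at -1.32 ± 0.235 (RNY1+/+) and -1.50 ± 0.261 (RNY1-/-). ATF4, which also drives Slc7a11, has an amino acid response list of which 11 of 13 tested were higher with RNY1+/+ EVFx (median 2.21) and 9 of 13 with each other fraction (medians 1.64, 1.70 and 1.38; 8 of 13 for RNY1+/+ ProteinFx with total-count scaling), with 1 lower in each ProteinFx group. Asparagine synthetase Asns rose in each, by 2.80 ± 0.17, 2.84 ± 0.176, 3.51 ± 0.179 and 3.38 ± 0.173 for RNY1+/+ EVFx, RNY1-/- EVFx, RNY1+/+ ProteinFx and RNY1-/- ProteinFx.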
